A study of Mus musculus with 12 samples.

Results

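Hearts of mice given DMA were compared at 48 h and 24 h after dosing, without a vehicle group. The comparison used 6 of the 12 arrays of the series, chosen by their titles: 3 from mice that had received DMA 48 h earlier and 3 from mice that had received it 24 h earlier. All animals were Balb/c mice, an inbred laboratory strain, gavaged once with 30 mg DMA per kg body weight. The labels do not expand the abbreviation DMA, and they give neither age nor sex. RNA came from myocardium, and each array measured the polyA RNA of 1 sample in 1 colour, Cy5, as a log2 intensity. The labels call the 3 arrays of a group biological replicates, and the design text says that the RNA of a group's animals was isolated as a pool. The p-values therefore measure the spread between these arrays, which may be technical. The other 6 arrays, of hearts after the vehicle DMSO, were not used, so what DMA did and what the passage of time did cannot be told apart.

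The genes described most fully belong to the interferon response and to cell division. Interferons are cytokines that bind receptors on most cell types, and the receptors pass the signal through STAT and IRF transcription factors to genes with an interferon-stimulated response element. Those genes encode antiviral enzymes, RNA sensors, chemokines and antigen processing factors. Cell division genes encode the cyclins and kinases that drive the cycle, the replication machinery and the proteins of the mitotic spindle. Most cardiomyocytes of an adult mouse no longer divide, while endothelial cells, fibroblasts and immune cells of the heart can.

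Promoter sequences show the motifs for which these gene groups are known. The windows were taken from RefSeq (assembly GRCm38.p6) and run from 250 bases before the transcription start to 50 after it. The CCAAT box (CCAAT, or ATTGG on the other strand) was in 26 of 33 windows of 31 cell division genes, or 78.8%, against 37.4% of all 32851 windows. The core of the interferon-stimulated response element (GAAANNGAAA, or TTTCNNTTTC on the other strand) was in 15 of 31 windows of 27 interferon genes, or 48.4%, against 3.44% of all windows. In the cell division windows the second motif was found in 3.03%, and in the interferon windows the first was found in 41.9%. A match describes the letters and does not show that a factor binds there. The 5 sequences below are the 250 bases before the start of genes whose values are described further on. Each is written 5′ to 3′ on the gene's own strand, which is the minus strand in all 5. Capitals mark 1 motif per gene. It is the CCAAT box in Ccnb2, Cdk1 and Top2a and the response element in Cxcl10 and Oas3. The other motif is not marked, and the sequences of Cxcl10 and Oas3 also hold CCAAT in small letters. Ccnb2 lies at chr9:70421555-70421804, Cdk1 at chr10:69352913-69353162, Top2a at chr11:99024190-99024439, Cxcl10 at chr5:92348890-92349139 and Oas3 at chr5:120777660-120777909. In Ccnb2 the CCAAT boxes begin 87, 54 and 21 bases before the start, and in Oas3 the response element begins 75 bases before it.
Ccnb2: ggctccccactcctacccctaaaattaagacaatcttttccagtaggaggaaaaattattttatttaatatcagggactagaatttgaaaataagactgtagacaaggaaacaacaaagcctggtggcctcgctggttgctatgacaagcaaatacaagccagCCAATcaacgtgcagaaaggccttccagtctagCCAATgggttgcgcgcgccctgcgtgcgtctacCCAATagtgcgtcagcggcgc
Cdk1: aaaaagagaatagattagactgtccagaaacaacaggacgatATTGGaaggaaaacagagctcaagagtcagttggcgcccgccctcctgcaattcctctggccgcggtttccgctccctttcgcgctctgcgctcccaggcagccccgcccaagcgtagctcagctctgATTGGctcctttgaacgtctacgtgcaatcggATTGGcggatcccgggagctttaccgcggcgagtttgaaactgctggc
Top2a: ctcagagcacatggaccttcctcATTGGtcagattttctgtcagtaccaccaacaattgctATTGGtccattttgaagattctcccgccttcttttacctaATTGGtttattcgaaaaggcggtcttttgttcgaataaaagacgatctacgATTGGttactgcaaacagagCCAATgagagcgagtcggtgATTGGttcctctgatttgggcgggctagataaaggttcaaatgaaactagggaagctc
Cxcl10: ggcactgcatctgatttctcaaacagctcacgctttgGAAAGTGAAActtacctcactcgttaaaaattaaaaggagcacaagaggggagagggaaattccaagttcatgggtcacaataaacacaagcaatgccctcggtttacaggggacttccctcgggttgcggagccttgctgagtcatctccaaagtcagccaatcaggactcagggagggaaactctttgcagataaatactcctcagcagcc
Oas3: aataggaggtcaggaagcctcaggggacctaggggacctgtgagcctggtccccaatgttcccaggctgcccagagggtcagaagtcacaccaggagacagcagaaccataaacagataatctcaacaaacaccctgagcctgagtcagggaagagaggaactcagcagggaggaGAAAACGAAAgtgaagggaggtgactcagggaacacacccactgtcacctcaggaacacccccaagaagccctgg

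No probe passed the test at 48 h against 24 h. Over 35950 probes, limma called 0 (0%) at a Benjamini-Hochberg adjusted p under 0.05, and before adjustment 521 (1.45%) lay below 0.05. The smallest adjusted p was 0.949. One array stood apart. DMA 24 h replicate 3 correlated at 0.695 to 0.724 with the other 5, which correlated at 0.910 to 0.952 with each other, and the closest pair of all was 24 h replicate 1 with 48 h replicate 2. Without that array limma again called 0 of 34778 probes (0%), where the smallest adjusted p was 1.00 and 876 probes (2.52%) lay below 0.05 before adjustment. No gene below therefore rose or fell by the test, and the values that follow describe these arrays. Every gene is given with all 6 arrays and, where stated, with the 5 that leave out 24 h replicate 3. Differences are 48 h minus 24 h in log2 units, after quantile normalization of the arrays used. They are given on 1 probe per gene, that of the highest mean, for 17911 genes with 6 arrays and 17326 with 5.

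DMA 24 h replicate 3 was low for many abundant transcripts. On it 3240 probes lay more than 3 log2 units below their mean on the other 5 arrays in the deposited values, and 320 lay as far above. The other arrays had 209 to 283 probes that far below and 18 to 61 above. Of probes with a mean level of 8 to 10 on the other arrays 22.4% were that far below, of those at 10 to 12 it was 28.1%, and of those at 4 to 6 it was 1.68%. Tnnc1, which encodes cardiac troponin C, read 13.62 and 13.29 on 24 h replicates 1 and 2, 6.23 on replicate 3, and 13.25, 13.61 and 12.60 at 48 h. Its difference was 2.11 (SE 1.85) with 6 arrays and -0.29 without replicate 3. In the deposited values the transcription factor gene Nkx2-5, a defining cardiomyocyte gene, read 6.39 on this array and 10.65 to 11.98 on the others. On its brightest probe Ttn, which encodes titin, read 13.49 on this array and 14.24 to 14.74 on the other 4 arrays with a value. Dimmer Ttn probes differed in order. This array was highest at 7.28 (others 5.24 to 6.33) and at 7.25 (4.92 to 5.77), and lowest at 4.22 (4.56 to 6.66). It lay within the others at 11.07 (10.43 to 12.63) and at 4.35 (3.53 to 5.37). The liver gene Alb, at 2.44 to 4.32, and the lung gene Sftpc, at 2.57 to 4.55, were low on all 6. Tnni3, Pln and Myl2, transcripts of cardiac troponin I, phospholamban and ventricular myosin light chain, had a value on 24 h replicate 3 alone and were not tested. In the array plot the correlations of 24 h replicate 3 form the dark row and column.

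**Figure D1:**
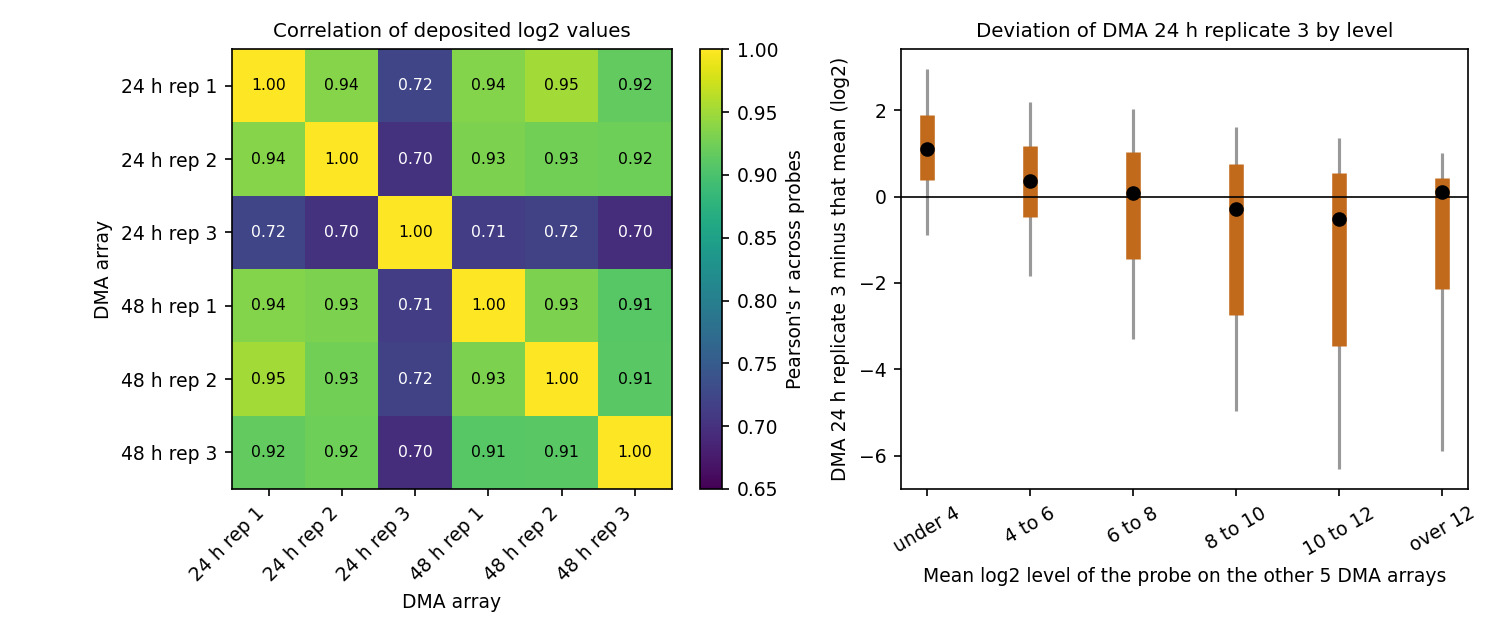
Left, Pearson's r across probes between the deposited log2 values of each pair of the 6 DMA arrays; r is 0.70 to 0.72 in the row of 24 h replicate 3 and 0.91 to 0.95 elsewhere off the diagonal. Right, the deviation of 24 h replicate 3 from the mean of the other 5 arrays in log2 units, in 6 classes of mean level: points are medians, thick bars run from the 25% to the 75% quantile and thin lines from the 5% to the 95% quantile, and from a level of 6 upwards the thin lines reach below -3.

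Interferon-induced genes were lower at 48 h than at 24 h as a group of values, with a wide spread between arrays. The list held 34 genes and 30 were tested, of which 22 had a negative difference, against 51.3% of all genes. Their median difference was -0.66, and that of all genes was -0.02. At an unadjusted p under 0.05, 4 members were lower, against 0.815% of all genes, and 0 passed limma's adjusted threshold. Members without overlap between the groups on the lower side also numbered 4, against 3.74% of all genes. Without 24 h replicate 3, 26 of 28 members had a negative difference (49.7% of all genes) and 7 did not overlap (6.61%). The unadjusted p was under 0.05 in 3 of them (0.75% of all genes on that side). The median was -0.84, the lowest of the 45 lists that were described. The list was studied because earlier results of these arrays were known, so these counts are no independent evidence of a direction.

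Among the antiviral effectors, Oasl1, an oligoadenylate synthetase-like protein, read 9.36, 11.39 and 12.16 on 24 h replicates 1 to 3 and 8.47, 8.22 and 9.02 on the 48 h arrays. All 24 h values lay above all 48 h values, as the rule that named this gene required, and 24 h replicate 1 lay closest to the 48 h group. The means were 10.97 ± 1.45 (SD, n = 3) and 8.57 ± 0.41 (SD, n = 3), a difference of -2.40 (SE 0.75, limma adjusted p = 0.949). Oas3, one of the synthetases whose product activates the RNA-degrading enzyme RNase L, read 8.06, 8.84 and 9.99 at 24 h and 6.76, 6.38 and 7.51 at 48 h. It was not on the list and was reached by the rule for named genes, which required groups without overlap. It differed by -2.08 (SE 0.62, limma adjusted p = 0.949) and by -1.58 without 24 h replicate 3.

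Mx1, a dynamin-like GTPase that blocks viruses, read 6.25, 8.65 and 9.36 at 24 h and 6.50, 5.65 and 5.43 at 48 h. Its 24 h replicate 1 lay inside the 48 h range, so the groups overlapped, and the difference was -2.23 (SE 0.83). Mx2 had the same order, with 8.96 on 24 h replicate 1 against 11.35 and 12.42 on replicates 2 and 3, and with 7.87 to 9.49 at 48 h. Oas2 differed by -1.50 (SE 0.68) and also overlapped, since 24 h replicate 1, at 10.61, lay below 48 h replicate 3, at 10.87. In these genes the 24 h group was itself spread over more than 1 log2 unit.

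Values of signal transducers and sensors differed between members. Ifih1, the sensor of long double-stranded RNA also called MDA5, read 11.60, 12.52 and 13.28 at 24 h and 11.60, 10.55 and 11.64 at 48 h, a difference of -1.20 (SE 0.59). Its lowest 24 h value was that of replicate 1, and the groups overlapped there. Stat2, a transducer of the type I interferon receptor, differed by -1.10 (SE 0.66). Irf1, a transcription factor that interferon gamma induces, read 10.61 and 10.27 on 24 h replicates 1 and 2, had no value on replicate 3, and read 9.97, 10.03 and 8.05 at 48 h. The groups did not overlap, and 48 h replicate 3 was the lowest. Irf9, a transcription factor of the same family as Irf1, differed by 0.85 with 6 arrays and by -0.59 without 24 h replicate 3, on which it read 4.42.

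The chemokines that draw activated T cells were both lower. Cxcl10 read 7.01, 7.98 and 7.62 at 24 h and 6.27, 6.45 and 6.28 at 48 h. The groups did not overlap, the 48 h arrays were close together, and the difference was -1.20 (SE 0.43, limma adjusted p = 0.949). It was -1.17 without 24 h replicate 3. Cxcl9 read 8.65, 8.39 and 7.38 at 24 h and 7.19, 7.62 and 6.70 at 48 h, a difference of -0.97 (SE 0.51) with overlap. It was -1.36 without 24 h replicate 3, where the rule, which required no overlap, named it.

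Antigen processing and immune checkpoint genes differed in overlap. Tap1, a subunit of the peptide transporter of antigen presentation, differed by -0.41 (SE 0.59) with overlap. Psmb8, an inducible catalytic subunit of the immunoproteasome, read 10.72, 10.51 and 11.24 at 24 h and 9.33, 10.16 and 9.59 at 48 h, a difference of -1.13 (SE 0.45) with no overlap. Its partner subunit Psmb9 differed by 0.92 (SE 1.40) with 6 arrays and by -0.86 without 24 h replicate 3, which read 4.72 against 9.97 and 10.18 on the other 24 h arrays. Cd274, which encodes the T cell inhibitory ligand PD-L1 and is not on the list, read 11.56, 11.55 and 11.81 at 24 h and 10.12, 10.40 and 10.40 at 48 h. Its replicates were tight in both groups, with SDs of 0.15 and 0.17, and it had the smallest p of the genes named on the lower side. The difference was -1.33 (SE 0.39, limma adjusted p = 0.949), and -1.23 without 24 h replicate 3 (limma adjusted p = 1.00).

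The remaining genes named on the lower side with 6 arrays were Batf2, Cd300lg and Phf11a. Batf2, a transcription factor gene that interferon induces, read 8.29, 9.06 and 10.64 at 24 h and 7.12, 7.48 and 6.96 at 48 h. Phf11a read 8.24, 9.87 and 10.43 at 24 h and 7.70, 7.04 and 7.82 at 48 h. Cd300lg, which encodes a surface receptor of capillary endothelium, read 11.45, 11.45 and 12.24 at 24 h and 9.95, 10.78 and 9.998 at 48 h. Batf2, Phf11a and Cd300lg differed by -2.14, -1.99 and -1.46, and by -1.50, -1.54 and -1.19 without 24 h replicate 3. The rule required no overlap with 6 arrays, so its absence in these genes is not a separate result. The rule applied to the 5 arrays named Cd274 and Batf2 again and added Ms4a4c, Plac8, E030013I19Rik and Cxcl9. Plac8 differed by -1.38 there but by 0.59 with 6 arrays, and 24 h replicate 3 read 3.80 against 9.58 and 9.81.

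**Figure D2:**
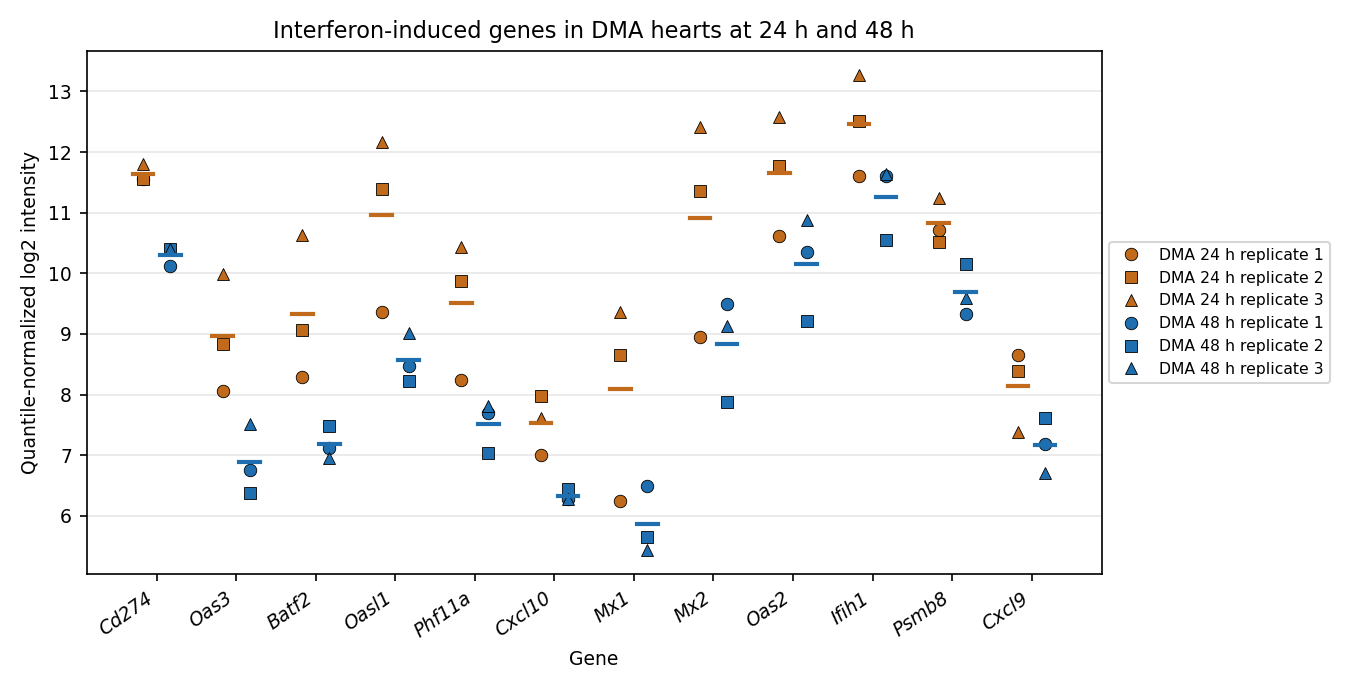
Quantile-normalized log2 intensity of 12 genes that interferon is known to induce or that the rule named on the lower side, on the 3 DMA 24 h arrays (orange) and the 3 DMA 48 h arrays (blue); symbols mark replicates 1 to 3 and bars the group means. Oas3, Batf2, Oasl1, Cxcl10, Psmb8, Phf11a and Cd274 show no overlap, while 24 h replicate 1 falls to the 48 h range in Mx1, Mx2, Oas2 and Ifih1. The rule that named Oas3, Batf2, Oasl1, Phf11a and Cd274 required no overlap. The 12 genes were picked by hand, and all had a negative difference with 6 arrays. The 8 of 30 tested list members with a positive difference are not drawn, nor is Cd300lg, which the rule also named.

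With 6 arrays 8 members had a positive difference: Gbp3, Psmb9, Irf9, Ifit2, Gbp2, Irgm1, Dhx58 and Bst2. Of these Dhx58, a regulator of RNA sensing also called LGP2, was positive in both sets, at 0.21 (SE 0.43) with 6 arrays and 0.41 without 24 h replicate 3. Isg15, the ubiquitin-like interferon product, read 7.21, 6.82 and 9.56 at 24 h and 7.16, 7.61 and 6.96 at 48 h, and differed by -0.62 with 6 arrays and by 0.23 without 24 h replicate 3. Usp18, the protease that removes it, differed by -0.74 (SE 0.90), and Ifit1 by -0.86 (SE 0.81). Oasl2 had 1 value at the lowest of its array, -0.43 on 48 h replicate 2, against 10.87 and 11.62 on the other 48 h arrays. Without that array its difference was 2.11, where with it the value was -1.77.

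The members were not equally low on all arrays of 48 h. Compared array by array, 48 h replicate 2 was lower than 24 h replicate 1 in 27 of 29 members and lower than 24 h replicate 2 in 27 of 29. In contrast 48 h replicate 1 was lower than 24 h replicate 1 in 11 of 29 and higher in 18. The share over all genes was not computed for these pairs, so the list and the arrays as a whole cannot be told apart. Over the 26 members with a value on all arrays, the mean level was 8.70, 9.498 and 8.11 at 24 h and 8.85, 7.57 and 8.02 at 48 h. 48 h replicate 1 thus lay between the 24 h arrays. The mean of 48 h replicate 2 includes Oasl2 at the lowest value of that array. The median deviation of these members from their means over the 6 arrays was 0.33, 0.96 and -0.27 at 24 h and 0.28, -0.58 and -0.67 at 48 h. The list median lay between -0.95 and -0.40 over the fits that each left out 1 array, and the number of lower members between 18 and 26.

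Macrophage and monocyte markers had a median of -0.06 over 15 markers with 6 arrays, 10 of them negative, and of -0.59 over 14 with 5 arrays, 12 of them negative. Cd14, Lyz1, Ccr2, C1qb and Adgre1 were positive with 6 arrays. Cd14, a receptor for bacterial lipopolysaccharide, differed by 2.15 with 6 arrays and by 0.03 with 5. The mean level of the 12 markers with a value on all arrays was 9.33, 9.33 and 7.27 at 24 h and 8.95, 9.24 and 8.36 at 48 h. C1qc, a chain of complement C1q, read 12.53, 12.61 and 12.65 at 24 h and 11.71, 12.42 and 11.86 at 48 h, a difference of -0.60 (SE 0.41) with no overlap. Aif1, the macrophage protein also called IBA1, differed by -0.68 (SE 0.42), also without overlap. Lymphocyte markers had a median of -0.24 and neutrophil markers of -0.24. S100a8, abundant in neutrophils, read 11.70, 7.99 and 9.51 at 24 h and 6.33, 11.16 and 7.11 at 48 h, with both groups widely spread. The part of these cell types in the interferon values was not tested, and in bulk tissue fewer cells of a type and less RNA per cell cannot be told apart.

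Cell division genes were higher at 48 h than at 24 h as a group of values, with members on both sides. The list held 38 genes and 35 were tested, of which 28 had a positive difference, against 48.7% of all genes, with a median of 0.58. Members without overlap numbered 10 on the higher side, against 2.92% of all genes, and 1 on the lower side. At an unadjusted p under 0.05, 4 were higher, against 0.363% of all genes, and 0 passed limma's adjusted threshold. Without 24 h replicate 3 the difference was positive in 26 of 33 (50.3% of all genes), with a median of 0.39, and 14 did not overlap on the higher side against 7.28% of all genes. The unadjusted p was under 0.05 in 7, against 1.24% of all genes on that side. All 6 genes that the rule for named genes reached on the higher side with 6 arrays were members. Of the 6 named with 5 arrays, 5 were members and the other, Pclaf, encodes a protein that binds the replication clamp PCNA. This list too was chosen with earlier results of these arrays known, so its counts are no independent evidence of a direction. Other lists had a median above its 0.58 with 6 arrays. They were ribosomal proteins at 1.05, heat shock genes at 0.73, fibroblast markers at 0.68, and intercalated disc and FoxO genes at 0.63. Without 24 h replicate 3 these medians were -0.10, -0.08, 0.12, 0.09 and -0.07, in that order.

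Values of cyclins and their kinase follow. Ccna2, which encodes cyclin A2 of S phase and G2, read 6.63, 6.68 and 5.57 at 24 h and 7.40, 7.60 and 8.01 at 48 h. Every 48 h value lay above every 24 h value, as the rule that named it required. The difference was 1.38 (SE 0.48, limma adjusted p = 0.949), and 1.03 without 24 h replicate 3. Ccnb2, which encodes the mitotic cyclin B2, read 6.71, 6.89 and 3.42 at 24 h and 7.78, 7.87 and 8.87 at 48 h. Replicate 3 was far below the others at 24 h, and the difference of 2.498 (SE 0.96) became 1.39 without it. Cdk1, the kinase that cyclins A and B activate, read 7.75, 7.77 and 5.01 at 24 h and 8.57, 8.23 and 9.28 at 48 h, a difference of 1.85 (SE 0.82), and 0.94 without 24 h replicate 3. For Ccnb2 and Cdk1, 24 h replicate 3 was the lowest 24 h value, so leaving it out could not bring the groups together.

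Of the mitotic spindle and chromosome genes, Birc5, Mki67 and Nusap1 were named by the rule, which required no overlap. Others were lower at 48 h and are given further on. Birc5, which encodes survivin of the chromosomal passenger complex, read 7.02, 7.25 and 7.20 at 24 h and 8.07, 8.06 and 8.19 at 48 h. The SDs were 0.12 and 0.07, and 24 h replicate 3 lay between the other 24 h arrays. Its difference was 0.95 (SE 0.38, limma adjusted p = 0.949) with 6 arrays and 0.98 with 5, and over all alternatives it lay between 0.89 and 1.45. Mki67, the proliferation marker Ki-67 that coats mitotic chromosomes, read 8.05, 8.23 and 8.99 at 24 h and 9.28, 9.11 and 10.22 at 48 h, a difference of 1.11 (SE 0.51). Nusap1, a microtubule-binding spindle protein, read 7.78, 7.20 and 4.10 at 24 h and 8.20, 8.10 and 9.05 at 48 h, a difference of 2.09 (SE 0.96) that was 0.97 without 24 h replicate 3.

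Prc1, which bundles the microtubules of the spindle midzone, overlapped with 6 arrays: 24 h replicate 3 read 8.58 against 7.29 and 7.44 on the other 24 h arrays and 8.08 to 8.56 at 48 h. Without it Prc1 differed by 1.00 and was named by the rule, which required no overlap. Bub1, a kinase of the spindle checkpoint, differed by 0.82 with 6 arrays and by 1.77 with 5 arrays, and 24 h replicate 3 read 6.05 against 2.60 and 3.83. Cdc20, an activator of the anaphase-promoting complex, differed by 0.59 (SE 0.41) with no overlap.

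Replication genes were mixed in clarity. Rrm1, the large subunit of ribonucleotide reductase, read 4.62, 2.95 and 2.97 at 24 h and 5.03, 4.75 and 5.52 at 48 h, a difference of 1.58 (SE 0.59) at a level below the median of all tested probes, 6.18. Top2a, the topoisomerase that untangles replicated chromosomes, read 5.63, 6.14 and 3.31 at 24 h and 6.97, 6.53 and 6.72 at 48 h, a difference of 1.71 (SE 0.76) and 0.87 without 24 h replicate 3. Tk1, thymidine kinase, differed by 0.42 (SE 0.40), also without overlap. Pcna, the replication clamp itself, read 11.42, 11.25 and 6.79 at 24 h and 11.58, 11.32 and 12.04 at 48 h. Its difference of 1.83 with 6 arrays was 0.31 (SE 0.36) without 24 h replicate 3, and Mcm3, of the replicative helicase, went from 1.61 to 0.38. Like Rrm1, the division genes Top2a, Bub1, Cdc20, Aurkb, Ccne1 and Cenpe had mean levels below 6.18, from 3.79 (Cenpe) to 6.05 (Ccne1).

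On the other side, 7 of the 35 members had a negative difference with 6 arrays: Foxm1, Aurkb, Ccne1, Cenpe, Cenpa, Plk1 and Bub1b. Aurkb, the kinase of the same passenger complex as Birc5, read 5.60, 5.79 and 6.48 at 24 h and 5.56, 5.18 and 4.66 at 48 h, a difference of -0.82 (SE 0.47) with no overlap. Foxm1, a transcription factor of mitotic genes, read 6.70, 5.68 and 9.67 at 24 h and 6.59, 6.43 and 4.01 at 48 h. It differed by -1.67 (SE 1.15), and by 0.33 without replicate 3 of both groups, so its sign rested on these arrays. Cenpe, a motor protein of the kinetochore, differed by -0.40 (SE 0.81) with 6 arrays and by -0.72 with 5. Ccne1, which encodes cyclin E1 of the entry into S phase, differed by -0.45 (SE 0.66) with 6 arrays and by 0.26 with 5.

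**Figure D3:**
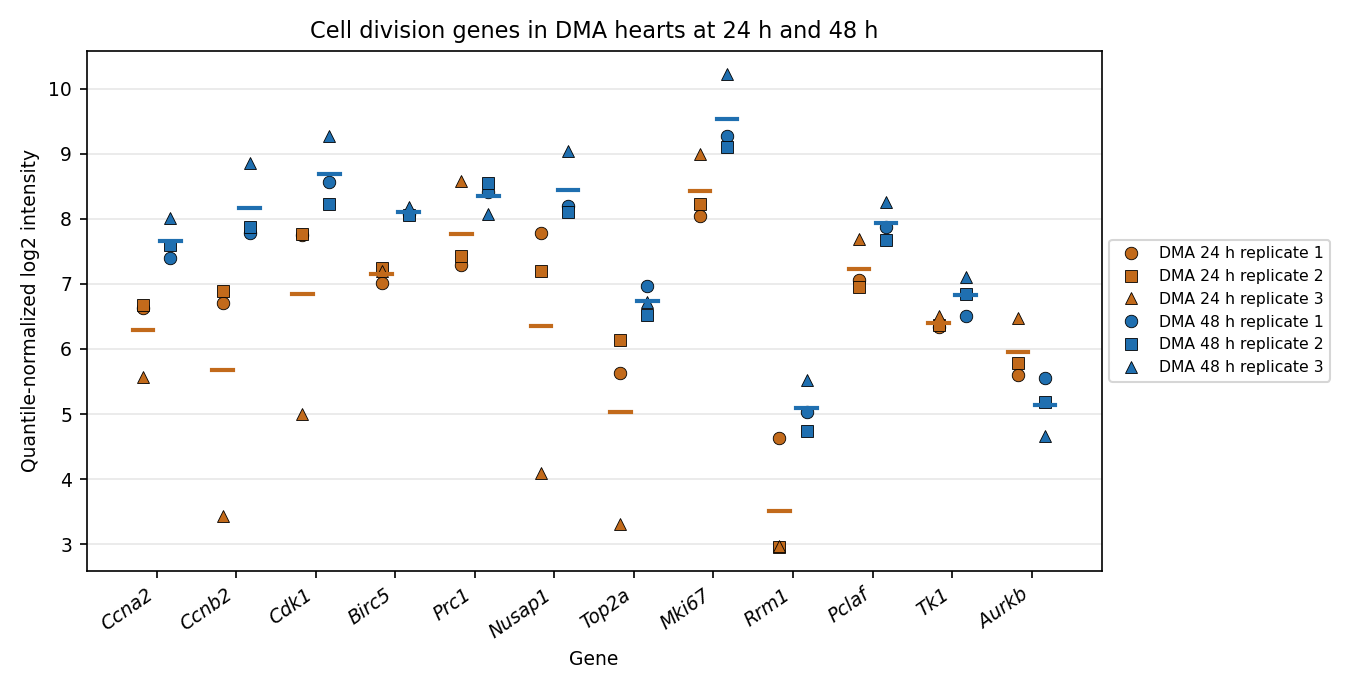
Quantile-normalized log2 intensity of 12 cell division genes on the 3 DMA 24 h arrays (orange) and the 3 DMA 48 h arrays (blue); symbols mark replicates 1 to 3 and bars the group means. The 48 h values of Ccna2, Birc5, Mki67 and Tk1 lie above all 24 h values, 24 h replicate 3 is far below its group in Ccnb2, Cdk1, Nusap1 and Top2a, and Aurkb runs the other way. The rule that named Ccna2, Birc5 and Mki67 required this separation. The 12 genes were picked by hand, and of the 7 of 35 list members with a negative difference only Aurkb is drawn.

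Array by array, 48 h replicate 1 was higher than 24 h replicate 1 in 31 of 34 division members and higher than 24 h replicate 2 in 28 of 34. 48 h replicate 2 was higher than 24 h replicate 2 in only 17 of 33. For these pairs too the share over all genes was not computed. The mean level of the 31 members with a value on all arrays was 6.50, 6.61 and 6.01 at 24 h and 7.16, 6.77 and 7.10 at 48 h, so the array means did not overlap. The list median lay between 0.39 and 0.64 over the fits that each left out 1 array. Which cells carried these transcripts was not measured. Beside them, fibroblast markers had a median of 0.68 with 6 arrays and 0.12 with 5, endothelial markers of -0.13 and -0.35, and lymphocyte markers of -0.24 and -0.17. The part of these cell types in the division values was not tested.

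**Figure D4:**
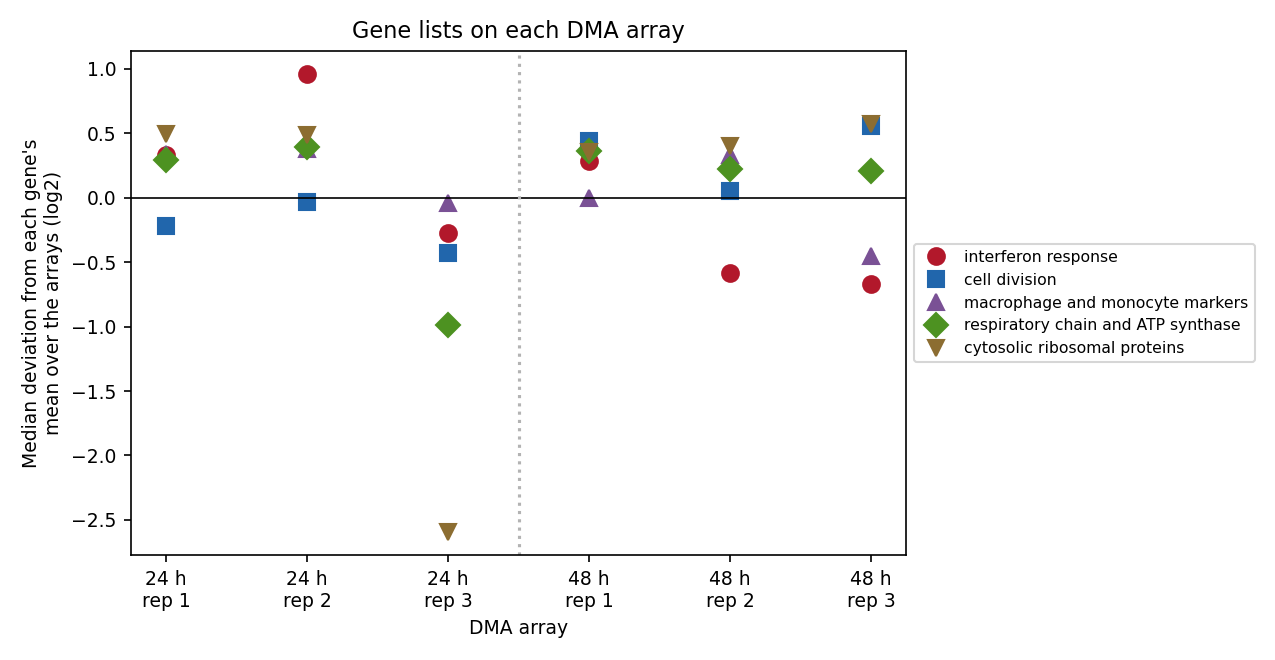
For 5 gene lists, the median over members of the deviation from each gene's mean over the 6 arrays, in log2 units, on each DMA array; the dotted line separates 24 h from 48 h. Cell division lies at -0.22, -0.03 and -0.43 at 24 h and at 0.44, 0.05 and 0.56 at 48 h, and ribosomal proteins lie at -2.60 on 24 h replicate 3 against 0.35 to 0.57 on the other arrays.

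The p53 and apoptosis list, genes of DNA damage response and cell survival, held members on both sides. Its 19 tested genes had a median of 0.42 with 6 arrays and 0.05 with 5. Mdm2, the ubiquitin ligase of p53, read 5.69, 4.93 and 5.29 at 24 h and 6.41, 5.87 and 5.90 at 48 h, higher without overlap by 0.76 (SE 0.43). Bcl2, which protects mitochondria from permeabilisation, read 8.49, 8.77 and 8.89 at 24 h and 7.82, 7.88 and 8.27 at 48 h, lower without overlap by -0.73 (SE 0.40). Apaf1, the scaffold of the apoptosome, differed by -0.71 (SE 0.41), also without overlap. Groups that lie apart keep their side when 1 array is left out, so the fit without 24 h replicate 3 is no further check here.

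Several lists of abundant heart transcripts had positive medians with 6 arrays and negative ones with 5. Members with too few values were not tested, among them Actc1, Myl3 and Atp2a2, so the medians describe only part of these lists. Of the members on the array, 31 of 48 ribosomal proteins and 18 of 27 sarcomere genes were tested. For the respiratory chain it was 35 of 69, and for cardiomyocyte markers 10 of 18. Cytosolic ribosomal proteins had the highest median of all lists with 6 arrays, 1.05 over 31 genes, and -0.10 over 27 genes without 24 h replicate 3. Heat shock genes and chaperones went from 0.73 to -0.08, sarcomere and Z-disc genes from 0.48 to -0.13, proteasome subunits from 0.42 to -0.12 and the respiratory chain from 0.39 to -0.08. Of the 45 lists, 25 had a positive median with 6 arrays and 11 with 5, and 18 changed sign. Among lists that stayed positive, the median went from 0.23 to 0.21 for cardiomyocyte markers, from 0.63 to 0.09 for the intercalated disc, from 0.47 to 0.07 for glycolysis and from 0.68 to 0.12 for fibroblast markers. Rpl15, a protein of the large ribosomal subunit, read 8.35, 8.26 and 3.68 at 24 h and 8.82, 7.93 and 8.88 at 48 h, and its difference of 1.78 was 0.24 without replicate 3. The matrix gene Col3a1, of type III collagen, read 13.90, 14.26 and 7.07 at 24 h and 14.65, 14.22 and 14.53 at 48 h, and went from 2.72 to 0.37. The groups of Dnaja1, a co-chaperone of HSP70, did not overlap, with 12.02, 11.97 and 9.58 at 24 h and 12.44, 12.45 and 12.21 at 48 h. Cycs, which encodes cytochrome c, read 4.41, 4.32 and 4.62 at 24 h and 5.48, 5.02 and 5.57 at 48 h, a difference of 0.91 (SE 0.40) and 1.01 without replicate 3, on a probe of low level.

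**Figure D5:**
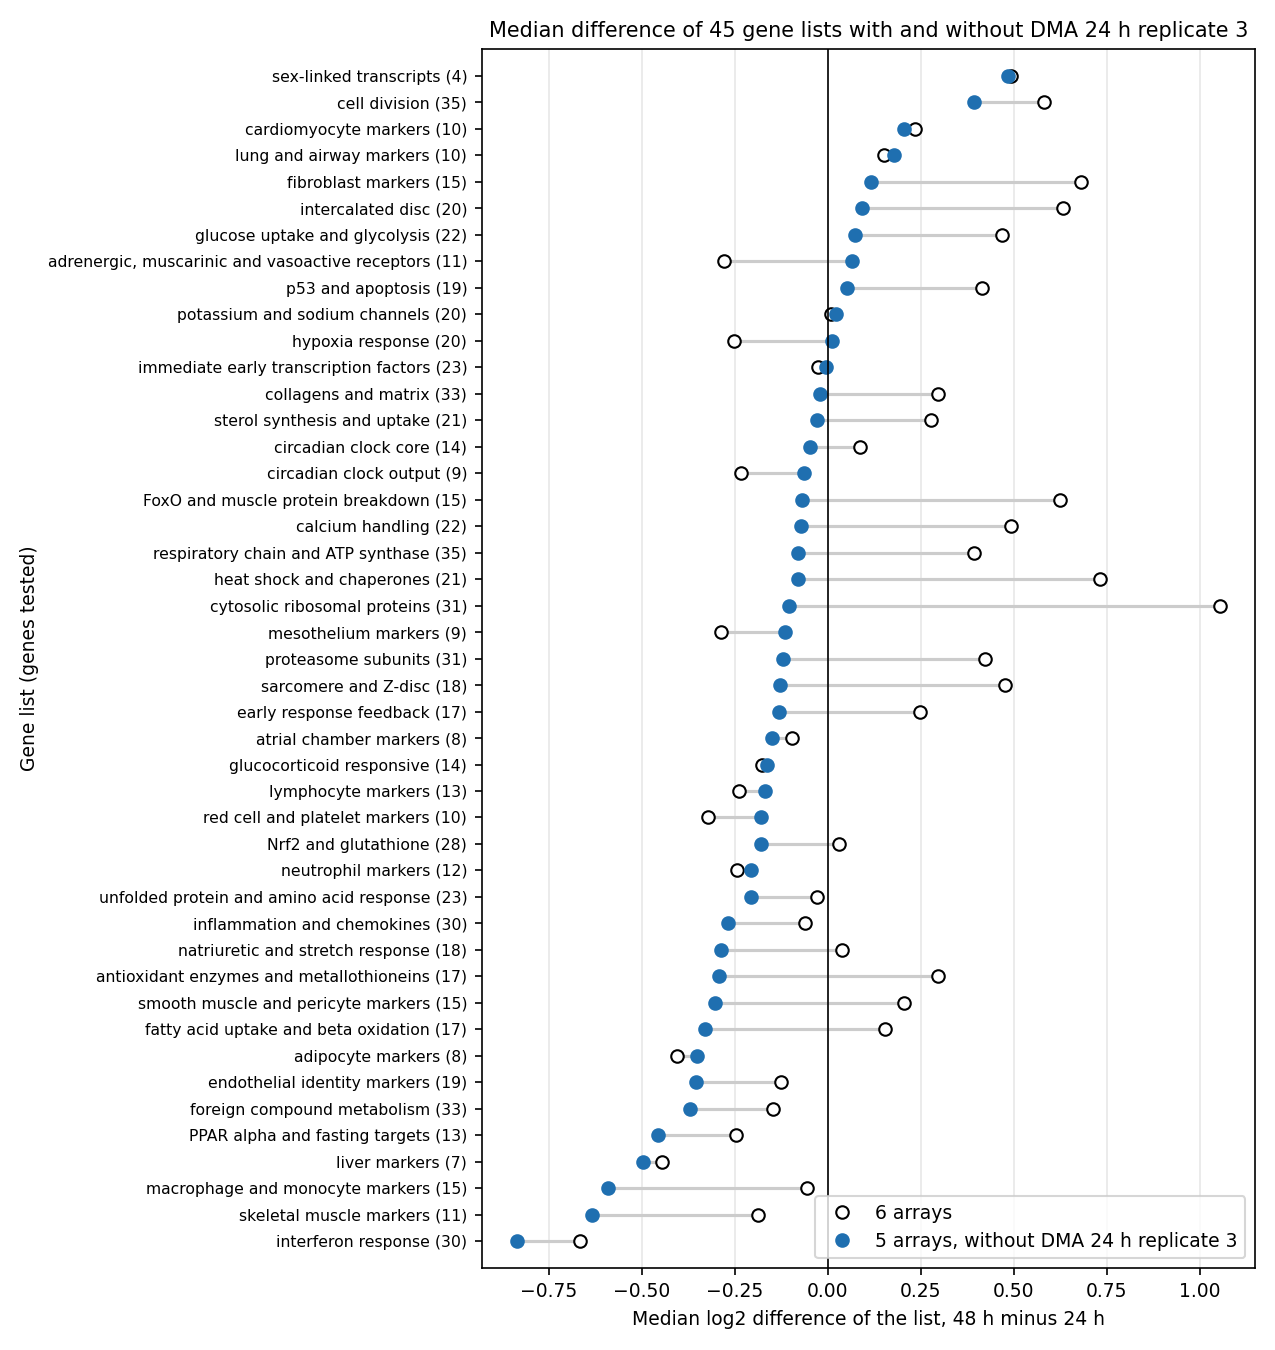
Median log2 difference, 48 h minus 24 h, of the 45 gene lists with 6 arrays (open circles) and with the 5 arrays that leave out DMA 24 h replicate 3 (filled circles), ordered by the latter; the number of genes tested with 6 arrays stands after each name. Interferon response is lowest at -0.84 and cell division is second from the top at 0.39, below the 4 sex-linked transcripts at 0.48. Ribosomal proteins run from 1.05 to -0.10.

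Of the ion channel genes, Kcnip2, an auxiliary subunit of the channels that carry the fast transient outward potassium current of ventricular muscle, read 4.94, 3.82 and 3.55 at 24 h and 6.97, 5.87 and 5.57 at 48 h. Its groups did not overlap, and the difference was 2.03 (SE 0.59, limma adjusted p = 0.949) with 6 arrays and 1.78 with 5. All 24 h values, and those of 48 h replicates 2 and 3, were below the median level of all tested probes, 6.18. The pore subunit of the same current, Kcnd2, read 10.18, 10.62 and 3.86 at 24 h and 10.84, 10.06 and 11.08 at 48 h, and its difference of 2.44 became 0.26 without 24 h replicate 3. Kcne1, an auxiliary subunit of the slow delayed rectifier, differed by 1.33 (SE 0.62) and had no value on 24 h replicate 1. The list of 20 potassium and sodium channels had a median of 0.01.

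Lists of fat use and of foreign compound metabolism depended on the arrays used. The PPAR alpha and fasting list had a median of -0.25 over 13 genes with 6 arrays, -0.46 with 5, and -0.11 without replicate 3 of both groups, where 6 genes were positive and 7 negative. The median of fatty acid uptake and beta oxidation was 0.15, -0.33 and 0.05 in these sets. Plin5, which coats the lipid droplets of oxidative tissue, read 12.55, 12.85 and 13.20 at 24 h and 11.85, 12.04 and 11.68 at 48 h, a difference of -1.01 (SE 0.41) with no overlap. Angptl4, a secreted inhibitor of lipoprotein lipase, read 11.40, 9.81 and 8.41 at 24 h and 7.36, 9.61 and 8.31 at 48 h, and without 24 h replicate 3 it did not overlap. The 33 genes of foreign compound metabolism had a median of -0.15 with 6 arrays, -0.37 with 5 and -0.01 without replicate 3 of both groups, where 16 were positive and 16 negative. The cytochrome P450 genes Cyp2c29 and Cyp2b13 differed by -1.28 (SE 0.49) and -1.10 (SE 0.43) without overlap, both at levels between 2.99 and 5.22. Liver markers had a median of -0.44 over 7 genes, and their part in these values was not tested.

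The hour of dosing or dissection is not in the labels, and clock genes are given for that reason. The 14 core clock genes had a median of 0.09 with 6 arrays and -0.05 with 5. Nr1d1, which encodes the repressor REV-ERB alpha and cycles strongly over the day, read 12.70, 12.23 and 12.92 at 24 h and 12.19, 12.63 and 12.35 at 48 h, with the groups intermingled. Per3 differed by -1.30 (SE 0.66) with overlap, and Cry1, a repressor of the clock, read 6.20, 6.40 and 5.92 at 24 h and 6.97, 6.53 and 6.87 at 48 h, a difference of 0.62 (SE 0.40) without overlap. Of the sex-linked transcripts, Xist, of the inactive X chromosome, lay between 2.72 and 5.20 on all 6 arrays, and Uty, of the Y chromosome, differed by 0.87 (SE 0.46). Eif2s3y, also sex-linked, read 9.57, 9.18 and 5.90 at 24 h and 10.44, 9.10 and 9.74 at 48 h. Kdm5d read 8.54, 6.77 and 10.54 at 24 h and 9.05 and 8.41 on 48 h replicates 1 and 2.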

How the data were processed

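The authors deposited log2 intensities of 36227 probes, with the background correction and scaling not given in the sources used here. In the deposited log2 values the medians were 6.03 to 6.04 on the 24 h arrays and 6.36 on the 48 h arrays, so time and separate scaling cannot be told apart. The 6 DMA arrays, or 5 without 24 h replicate 3, were quantile-normalized together. Probes with at least 2 values per group were tested by limma (version 3.58.1, R 4.3.3; lmFit, then eBayes), and p-values were adjusted by Benjamini-Hochberg over all of them, with 0.05 as the threshold. The number of arrays limits the precision. The scripts were tested on simulated data. Plots used matplotlib 3.10.9 in Python 3.11.15.

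Platform annotation gave 1 symbol for 21615 probes, several for 681 and none for 13931; 21487 named probes matched RefSeq by gene identifier. The 45 lists hold 995 genes, of which 785 were tested. Members and lists were chosen with earlier results of these data known. Named genes were, in each fit and direction, the 6 of smallest unadjusted p with no overlap, a value on every array and a level above the median; up to 3 per list; and markers, clock and sex-linked genes. Other interferon and division members were named after their values were seen. Deviations of same-numbered arrays from their group means correlated at -0.04, -0.13 and -0.02, against -0.09 to 0.13 for other pairs. No pairing by number was seen, but deviations within groups of 3 arrays cannot exclude one. Alternatives covered normalization, missing and dim values, variance model, probe order and arrays left out.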

Additional observations from a re-analysis of the deposited data

How the results depend on the processing

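Calls were 0 in limma under each of 31 alternatives of the 6-array and 5-array fits. Probes at an unadjusted p under 0.05 numbered 372 to 876 when 1 of the 6 arrays was left out, and 76 to 1468 under the other settings (521 as reported). For the 5-array fit the ranges were 865 to 1346 and 176 to 2016 (876 as reported). With the replicate block 0 probes passed and 449 had an unadjusted p under 0.05. With 1 array left out, lower interferon members numbered 18 to 26 and higher division members 23 to 28, against 22 and 28 as reported. The number of members tested changed with the fit. All 17 settings tried stayed within 1.5 times of the reported counts, but an almost even split would have done so too. Staying within that bound is therefore no check of direction. The settings were added for these counts after seeing the data. Values as deposited moved the median of all genes from -0.02 to 0.36, with 72.6% of genes positive against 48.7%. On that scale list medians were 0.29 (atrial chamber), 0.13 (lymphocyte), 0.068 (red cell and platelet), 0.10 (adipocyte), 0.15 (mesothelium), 0.20 (skeletal muscle), 0.22 (immediate early), 0.40 (clock core), 0.37 (clock output), 0.15 (PPAR alpha), 0.15 (adrenergic), 0.29 (foreign compound), 0.42 (unfolded protein), 0.91 (cell division), 0.17 (hypoxia), 0.75 (sterol) and 0.39 (potassium and sodium channels), and Nr1d1 differed by 0.22.

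The adipocyte median was -0.23 with median centring, -0.26 with array weights and -0.21 with the probe order trend removed. With array weights it was 0.13 for adrenergic receptors and -0.11 for ribosomal proteins. With dim probes left out it was 0.32 for skeletal muscle and -1.38 for liver, which then rested on 1 gene. With the replicate block the sex-linked median was 0.97. Without replicate 3 of both groups it was 0.11 for adrenergic receptors, -0.20 for ribosomal proteins and -0.13 for p53. With 1 array left out, medians ranged from -0.58 to -0.045 (adipocyte), -0.24 to 0.18 (lung), -0.63 to 0.011 (skeletal muscle), 0.44 to 0.94 (sex-linked), -0.25 to 0.12 (immediate early), -0.18 to 0.45 (early response feedback), -0.63 to -0.16 (PPAR alpha), -0.59 to 0.065 (adrenergic), -0.10 to 1.45 (ribosomal), -0.38 to 0.30 (hypoxia), -0.029 to 1.06 (sterol) and -0.22 to 0.021 (channels). The cause was not tested.

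Of 93 genes, 73 kept their sign in every setting that gave a value. Without replicate 3 of both groups Foxm1 differed by 0.33, Plac8 by -1.44, Isg15 by 0.37, Cd14 by -0.33, Ndufs3 by -0.14, Nppc by 0.057, Psmb9 by -0.79, Gbp3 by -0.039, Irf9 by -0.14, Tnnc1 by -0.026, Ccne1 by 0.23 and Tef by -0.17. With array weights Plac8 differed by -1.16, Isg15 by 0.22, Psmb9 by -0.64, Gbp3 by -0.33, Irf9 by -0.29 and Ccne1 by 0.237. With 1 array left out, differences ranged from -1.38 to 1.65 for Plac8, -1.15 to 0.23 for Isg15, -0.047 to 1.39 for Per2, -0.86 to 1.89 for Psmb9, -0.81 to 2.03 for Gbp3, -0.59 to 1.70 for Irf9, -0.958 to 0.2635 for Ccne1, -0.274 to 4.02 for Emcn and -0.29 to 3.40 for Tnnc1, each with its sign turned without 24 h replicate 3. They ranged from -3.83 to 2.11 for Oasl2, positive without 48 h replicate 2, from -0.81 to 0.040 for Tap1, positive without 48 h replicate 3, from -0.98 to 0.36 for Cenpe, positive without 24 h replicate 1 and without 48 h replicate 2, and from -1.28 to 0.045 for Usp18, positive without 24 h replicate 2. Irf7 differed by 0.052 with the probe order trend removed.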

Other observations

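Skeletal muscle markers, which a heart dissection could carry from the chest wall, had a median of -0.19 over 11 genes with 6 arrays and -0.63 over 9 with 5 arrays. Myh4, a fast skeletal myosin, read 4.66, 4.56 and 4.38 at 24 h and 2.76, 4.15 and 4.06 at 48 h, all low. Endothelial markers had 11 of 19 negative differences with 6 arrays, 16 of 18 with 5, and 9 of 18 without replicate 3 of both groups, where their median was -0.06. Emcn, which encodes the endothelial surface protein endomucin, differed by 2.55 (SE 2.16) with 6 arrays and by -0.27 with 5. Sox18, a transcription factor of endothelium, differed by -0.62 (SE 0.44) and Flt1, a receptor of vascular endothelial growth factor, by -0.79 (SE 0.60), both with overlap. Smooth muscle and pericyte markers had 10 of 15 positive differences and a median of 0.20 with 6 arrays, 12 of 15 negative and a median of -0.30 with 5, and 9 of 15 negative and a median of -0.14 without replicate 3 of both groups. Tagln, which encodes transgelin, read 11.20, 11.45 and 12.22 at 24 h and 10.34, 10.90 and 11.03 at 48 h.

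Values of DMA 48 h replicate 3 had a trend along the order of the probe numbers: its median deviation from the probe medians was 0.21 log2 units in the first of 8 equal classes and -0.76 in the last. With this trend removed 20 of 30 interferon members were lower and 29 of 35 division members were higher. Of all genes 54.6% were then positive, with a median of 0.07, against 48.7% and -0.02 before.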
